A study of Mus musculus with 2 samples.

Results

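Foxp3 regulatory T cells were 236 of the 4495 cells recovered from MC38 tumours in 2 single-cell libraries, 158 of 3321 cells in the aPD1 library and 78 of 1174 cells in the Control library. They were chosen by their transcripts: at least 1000 UMIs (unique molecular identifiers, each counting 1 captured transcript), at most 10% of them mitochondrial, at least 1 UMI of Foxp3 and 1 of Cd3d, Cd3e or Cd3g, and none of Cd8a or Cd8b1. Cells with 3 or more UMIs of Lyz2 and Csf1r, which mark myeloid cells, or of the cell-cycle genes Top2a, Birc5, Ube2c, Ccnb2 and Mki67 were left out. These values chose the cells, so the levels of those genes are a description of the choice. Every other gene was left out of the rule.

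The aPD1 group is tumours given an antibody against PD-1 at 200 μg per mouse per day, and the Control group is tumours given a control injection. MC38 is a mouse colon adenocarcinoma line. All tumours were started intradermally at 4 sites per mouse in C57BL/6J mice, grew for 7 days, and were then treated for 3 days. Viable CD45+ cells, that is leukocytes, were sorted and made into 10x Genomics 3' libraries. There was 1 library per group, and the number of mice pooled in each was not given in the sources used here. Treatment, mouse and library therefore cannot be told apart, no test between groups was possible, and every interval below covers counting error only.

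Regulatory T cells are CD4 T cells that restrain other lymphocytes, and Foxp3, their defining transcription factor, holds that programme in place. They take up interleukin-2 through a high-affinity receptor that contains the product of Il2ra, block costimulation through CTLA-4, and release interleukin-10. In tumours they often carry costimulatory receptors of the TNF receptor family, such as those encoded by Tnfrsf4, Tnfrsf9 and Tnfrsf18.

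The matrices held 13717817 UMIs in aPD1 and 5203415 UMIs in Control. Regulatory T cells had a median of 2196 UMIs and 1008.5 genes in aPD1 and of 2948.5 UMIs and 1253.5 genes in Control, so aPD1 cells were the shallower ones. Their summed UMIs were 402701 in aPD1 and 239061 in Control. Both libraries shared 4 cell barcodes, of which 0 belonged to a regulatory T cell. From macrophage genes, 2.87% of the UMIs in aPD1 regulatory T cells and 2.57% in Control ones were estimated to be free RNA.

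The label was checked against markers that the rule did not use, and each was higher in these cells than in Foxp3-negative T cells of the same library. Levels are given as CPM, the UMIs of a gene in every 1000000 UMIs of the cell set, with the exact 95% Poisson interval. Il2ra reached 512 CPM (444 to 586) in aPD1 and 477 CPM (393 to 573) in Control regulatory T cells, against 63.1 and 117 CPM in Foxp3-negative T cells of aPD1 and Control. Ikzf2, which encodes the transcription factor Helios, was found in 155 of 158 aPD1 cells and 74 of 78 Control cells. Tnfrsf4 was found in 155 and 76 cells of aPD1 and Control, and Izumo1r, the folate receptor 4 gene, in 108 and 59. Cd4 itself was sparse: 47 of 158 aPD1 cells and 40 of 78 Control cells had a Cd4 UMI, and after each cell was thinned to 1000 UMIs the shares were 15.8% and 26.9%. Foxp3, on chromosome X at 7573644 to 7595245 of mm10, gave 235 UMIs in aPD1 and 117 in Control.

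Most cells met the rule with a single Foxp3 UMI. Of the aPD1 cells 107 had 1, 33 had 2 and 18 had 3 or more Foxp3 UMIs, and of the Control cells 45, 27 and 6 did. Just outside the rule lay the T cells without Cd8 and Foxp3 UMIs, 528 in aPD1 and 208 in Control. Il2ra stood at 462 CPM in aPD1 cells with 1 Foxp3 UMI against 146 CPM in those with 0, and at 399 against 142 CPM in Control. Il10 stood at 275 CPM in aPD1 cells with 1 Foxp3 UMI against 89.4 CPM in those with 0, and at 414 against 136 CPM in Control. Cells with a single Foxp3 UMI had more of both genes than the cells left out. Among cells with a Cd4 UMI the same held, with intervals apart in aPD1 but overlapping in Control. There Il2ra was at 322 CPM (199 to 492) with 1 Foxp3 UMI against 198 CPM (132 to 286) with 0. Il10 in those Control cells was at 398 CPM (260 to 583) against 234 CPM (161 to 328). Foxp3 UMIs were absent from all 182 macrophages of aPD1 and all 178 of Control, and a limit of 3 cells would be 1.65% in aPD1 and 1.69% in Control. This limits macrophages with a Foxp3 UMI, not those expressing the gene. In T cells with a Cd8 UMI, 20 of 1014 in aPD1 and 7 of 76 in Control had a Foxp3 UMI.

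Regulatory T cells made up a share of CD8-negative T cells that the counting error does not separate between libraries. It was 23.03% in aPD1 (19.9 to 26.4, exact binomial interval, 158 of 686) and 27.3% in Control (22.2 to 32.8, 78 of 286). With the rule applied after thinning to 1000 UMIs it was 13.1% in aPD1 and 14.7% in Control. Of all T cells outside the cell cycle, they were 9.29% in aPD1 (7.96 to 10.8) and 21.5% in Control (17.4 to 26.1), and 5.94% and 12.3% after thinning. The intervals of this second share do not overlap. In the same libraries 994 of the 1522 Foxp3-negative T cells of aPD1 had a Cd8 UMI, against 69 of 277 in Control. A further 8 aPD1 cells and 3 Control cells met the rule but for their cell-cycle UMIs.

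Against Foxp3-negative T cells of the same library, 13 of 16 measured identity genes lay higher in regulatory T cells in both libraries, and Nrp1, Rgs1 and Cd83 lower. Of all 4845 measured genes 2147 lay higher in both libraries and 1121 lower in both. Of 4845 genes with at least 20 UMIs over both cell sets in each library, 195 were at least 2-fold higher in both libraries (4.02%) and 119 at least 2-fold lower (2.46%). That split depends on the scaling: it was 117 higher and 212 lower with TMM factors, and 128 higher and 179 lower when mitochondrial and ribosomal protein genes were left out of the total. Of 16 measured genes of the identity list, 12 were past 2-fold higher in both libraries and 0 past 2-fold lower. The median log2 difference of the list was 2.90 in aPD1 and 1.53 in Control, beside 0.15 over all genes in each. The Foxp3-negative T cells differ in makeup between the libraries: besides their CD8 T cells, 20.2% of them in aPD1 and 43.0% in Control carried 3 or more UMIs of the 5 regulatory T markers. A second comparison used Foxp3-negative T cells with a Cd4 UMI and no Cd8 UMI, 104 cells in aPD1 and 43 in Control. Most of these cells, 63.5% in aPD1 and 81.4% in Control, also carried 3 or more UMIs of the 5 markers. They are therefore not a set free of regulatory T markers. Against them the median over 13 measured identity genes was 1.36 in aPD1 and 0.80 in Control, and 4 of the 13 were past 2-fold higher in both libraries. Over all genes of that comparison 37 of 2395 genes (1.54%) were past 2-fold higher and 26 (1.09%) lower.

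**Figure D1:**
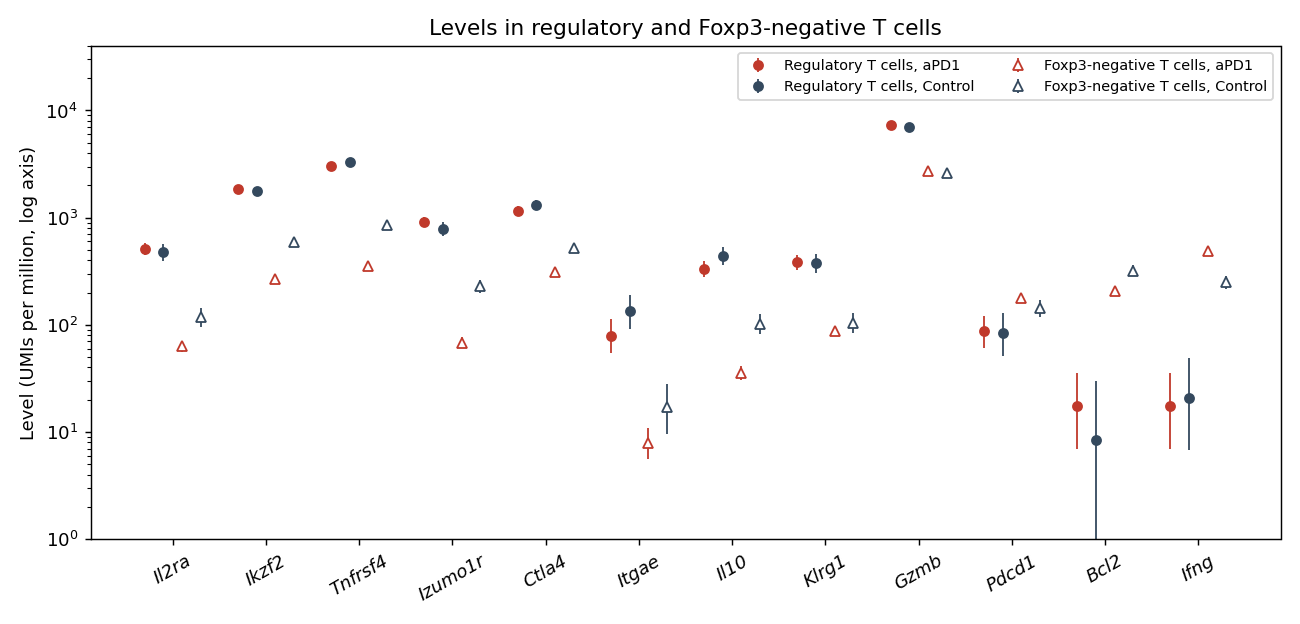
Level of 12 genes in CPM (log axis) in regulatory T cells (filled circles) and Foxp3-negative T cells (open triangles) of aPD1 (red) and Control (dark), with exact 95% Poisson intervals. Il2ra, Ikzf2, Tnfrsf4, Izumo1r, Ctla4, Itgae, Il10, Klrg1 and Gzmb lie higher in regulatory T cells of both libraries, and Pdcd1, Bcl2 and Ifng lower.

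Receptors of the identity programme had wide margins over all Foxp3-negative T cells. Izumo1r was at 914 CPM in aPD1 regulatory T cells against 68.2 CPM in aPD1 Foxp3-negative T cells, and at 786 against 228 CPM in Control. Its log2 difference was 3.74 (3.52 to 3.97) in aPD1 and 1.78 (1.49 to 2.08) in Control. Cd4-positive Foxp3-negative T cells had 330 CPM of Izumo1r in aPD1 and 496 CPM in Control. Against them its log2 difference was 1.47 in aPD1 and 0.67 in Control, the latter short of 2-fold. Lrrc32 encodes the GARP protein that holds latent TGF-beta at the cell surface. Over all Foxp3-negative T cells it had a log2 difference of 3.52 in aPD1 and 2.23 in Control. Itgb8, an integrin subunit that activates latent TGF-beta, had one of 3.78 in aPD1 and 2.47 in Control. Tgfb1 itself was at 256 CPM in regulatory against 136 CPM in Foxp3-negative T cells of aPD1, and at 184 against 203 CPM in Control, so its direction differed between libraries. Of the transcription factors, Ikzf4 (Eos) had a log2 difference of 3.05 in aPD1 and 1.82 in Control, and Maf one of 2.97 and 1.94. Maf was found in 108 of 158 aPD1 and 66 of 78 Control regulatory T cells. Among Cd4-positive Foxp3-negative T cells it was found in 55 of 104 in aPD1 and 24 of 43 in Control. Nrp1, often used as a regulatory T marker, was near absent, with 5 UMIs in aPD1 and 4 in Control.

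Costimulatory receptors lay higher in regulatory T cells. Tnfrsf4 (OX40) was at 3005 CPM in aPD1 regulatory T cells against 356 CPM in Foxp3-negative T cells, and at 3317 against 854 CPM in Control. Tnfrsf18 (GITR) was at 2069 CPM in aPD1 and 1941 CPM in Control regulatory T cells, and Tnfrsf9 (4-1BB) at 1885 and 1782 CPM. Icos, a CD28-family receptor, was at 1818 CPM in aPD1 and 1970 CPM in Control, against 568 and 694 CPM in Foxp3-negative T cells. Of 16 measured genes of the costimulation list, 6 were past 2-fold higher in both libraries and 0 past 2-fold lower, beside 4.02% and 2.46% of all genes. Of 10 measured against Cd4-positive Foxp3-negative T cells, 1 was past 2-fold higher, beside 1.54%. Ccr8, a chemokine receptor reported on tumour regulatory T cells, gave 0 UMIs in aPD1 and 4 in Control. Tigit gave 2 UMIs in aPD1 and 1 in Control, and neither gene could be compared at this depth.

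Of 20 measured genes on the list of suppressor molecules, 8 were past 2-fold higher in both libraries and 1, Gzma, past 2-fold lower, beside 4.02% and 2.46% of all genes. Of 17 measured against Cd4-positive Foxp3-negative T cells, 4 were higher and 2 lower by that measure, beside 1.54% and 1.09%. Gzmb, a granzyme best known from killer lymphocytes, was the most abundant of those named here: 7251 CPM (6990 to 7519) in aPD1 and 7044 CPM (6712 to 7389) in Control regulatory T cells. Foxp3-negative T cells, most of which are CD8 T cells in aPD1, had 2744 and 2622 CPM, a log2 difference of 1.40 in aPD1 and 1.43 in Control. Gzmb was found in 151 of 158 aPD1 cells and 76 of 78 Control cells, so few cells lacked it. Prf1, which encodes perforin, gave 5 UMIs in aPD1 and 4 in Control. Il10 was at 335 CPM in aPD1 and 439 CPM in Control, against 35.7 and 102 CPM in Foxp3-negative T cells. Its UMIs came from 58 of 158 aPD1 cells and 35 of 78 Control cells.

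Areg, an epidermal growth factor family ligand tied to tissue repair, sat in a minority of the cells. It was at 738 CPM in aPD1 from 51 cells and at 552 CPM in Control from 21 cells, with log2 differences of 3.04 and 2.06 over Foxp3-negative T cells. Against Cd4-positive Foxp3-negative T cells, which had 512 CPM of Areg in aPD1 and 163 CPM in Control, they were 0.53 and 1.76. Over all Foxp3-negative T cells, the Control value of 2.06 became 0.34 with the rule applied after thinning. Ctla4, the inhibitory receptor, was at 1162 CPM in aPD1 and 1313 CPM in Control, against 308 and 516 CPM in Foxp3-negative T cells. Cd4-positive Foxp3-negative T cells had 782 CPM of Ctla4 in aPD1 and 892 CPM in Control. Against them its log2 difference was 0.57 in aPD1 and 0.56 in Control, short of 2-fold. Over all Foxp3-negative T cells Lag3, another inhibitory receptor, had a log2 difference of 1.10 in aPD1 and 1.60 in Control. The ectoenzymes that turn ATP into adenosine differed: Nt5e (CD73) had one of 2.23 in aPD1 and 0.53 in Control, and Entpd1 (CD39) one of 1.40 in aPD1 and -0.16 in Control. Pdcd1, which encodes PD-1, lay lower in regulatory T cells, at 86.9 against 177 CPM in aPD1 and at 83.7 against 143 CPM in Control. Against Cd4-positive Foxp3-negative T cells its log2 difference was -1.84 in aPD1 and -1.69 in Control. Cd274, encoding the ligand PD-L1, was at 49.7 CPM in aPD1 and 71.1 CPM in Control, and its interval against Foxp3-negative T cells included 0 in both libraries. Arg1, the arginase of myeloid cells, gave 1 UMI in aPD1 and 0 in Control.

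Adhesion and homing genes followed. Itgae, the alpha chain of the CD103 integrin that binds epithelial E-cadherin, had the largest margin by the smaller of its values in both libraries, with log2 differences of 3.32 in aPD1 and 2.98 in Control. It gave 32 UMIs in each library, from 25 aPD1 cells and 23 Control cells. The difference of Itgae from Cd4-positive Foxp3-negative T cells was 0.60 in aPD1, short of 2-fold, and 2.24 in Control. Klrg1, an inhibitory receptor of differentiated lymphocytes, was at 385 CPM in aPD1 and 376 CPM in Control, against 88.3 and 105 CPM in Foxp3-negative T cells. Ccr2, a receptor for inflammatory chemokines, had a log2 difference of 1.52 in aPD1 and 1.29 in Control. Cxcr6, a receptor of tissue-resident T cells, went the other way, at 184 against 743 CPM in aPD1 and at 138 against 351 CPM in Control.

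The remaining genes with the largest common margins were of mixed function. Rapsn, known for anchoring acetylcholine receptors in muscle, had log2 differences of 3.95 in aPD1 and 2.28 in Control. Ddit4, an inhibitor of mTORC1 signalling, had 2.26 and 1.83, and Matk, a tyrosine kinase related to Csk, had 2.99 and 1.78. Bmyc, Arl5a, Fam110a and Sdcbp2 were between 1.94 and 3.52 in aPD1 and between 1.87 and 2.25 in Control. The 15 genes named for the largest margins were chosen in the same regulatory T cells, against a set that contains the Cd4-positive Foxp3-negative T cells. A high count against those Cd4-positive cells is therefore partly built in. Past 2-fold higher against them in both libraries were 5, namely Bmyc, Il2ra, Klrg1, Matk and Rapsn, beside 37 of all 2395 genes (1.54%). Against those cells Fam110a was at 0.09 in aPD1 and 1.76 in Control, and Sdcbp2 at 0.60 and 0.62. Among targets of interleukin-2 signalling, 7 of 14 measured genes were past 2-fold higher in both libraries and 1 lower, beside 4.02% and 2.46% of all genes. Against Cd4-positive Foxp3-negative T cells 2 of 12 were past 2-fold higher and 0 lower, beside 1.54% and 1.09%. Socs2, a feedback inhibitor of cytokine receptors, was at 2.66 in aPD1 and 1.55 in Control over all Foxp3-negative T cells.

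**Figure D2:**
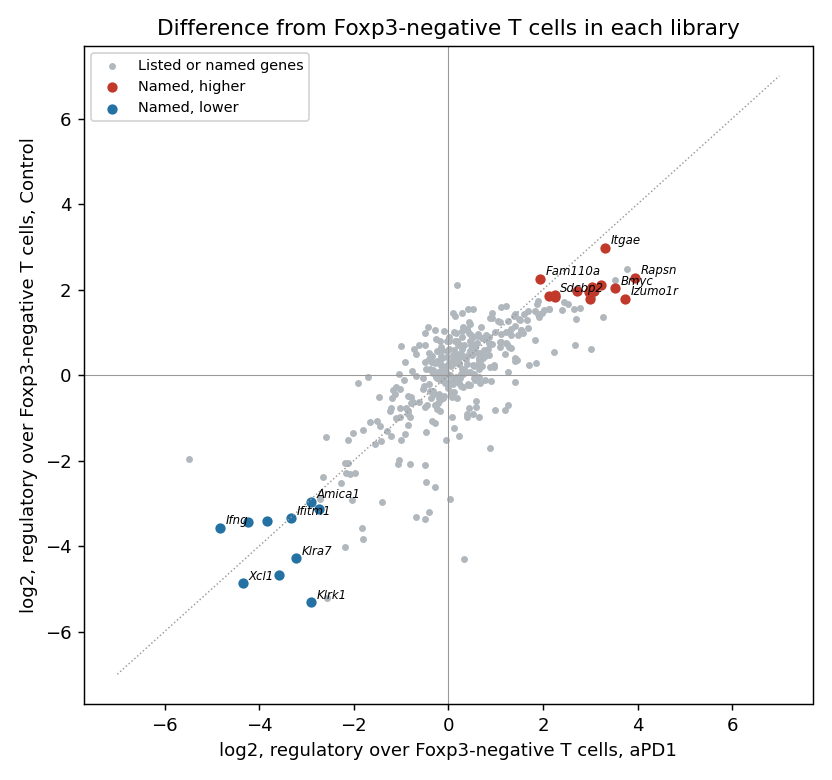
Log2 level in regulatory over Foxp3-negative T cells in aPD1 (horizontal axis) and Control (vertical axis) for the listed and named genes that passed the count minimum. The dotted line marks equal values. Named higher genes (red) lie below it, with wider margins in aPD1, Fam110a excepted, and named lower genes (blue) lie on both sides.

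Of 15 measured genes of the cytotoxic list, 11 were past 2-fold lower in regulatory T cells in both libraries and 1 higher, beside 2.46% and 4.02% of all genes. Against Cd4-positive Foxp3-negative T cells 3 of 10 were past 2-fold lower and 3 higher, beside 1.09% and 1.54% of all genes. The 10 lowest genes were of mixed function. Ifng gave 7 UMIs in 158 aPD1 cells and 5 in 78 Control cells, a level of 17.4 and 20.9 CPM against 493 and 250 CPM in Foxp3-negative T cells. Xcl1, a chemokine of CD8 T and NK cells, gave 4 UMIs in aPD1 and 3 in Control. Bcl2, which encodes an anti-apoptotic protein and is a classical interleukin-2 target, gave 7 UMIs in aPD1, 6 of them from 1 cell, and 2 in Control. It stood at 208 CPM in Foxp3-negative T cells of aPD1 and 319 CPM in those of Control. Ly6c2 was at 149 CPM in aPD1 and 105 CPM in Control regulatory T cells, against 2822 and 1129 CPM. The NK receptor genes Klrc1, Klrk1, Klra7 and Klra1 gave 10, 33, 5 and 2 UMIs in aPD1, and 5, 0, 0 and 0 in Control. Amica1, a junctional adhesion molecule-like gene, gave 9 UMIs in aPD1 and 1 in Control. Ifitm1, an interferon-induced membrane protein gene, gave 19 UMIs in aPD1, 11 of them from 1 cell, and 0 in Control. These low levels are also a difference from CD8 T cells, which the rule keeps out of the regulatory T cells. Against Cd4-positive Foxp3-negative T cells the 3 measured genes of the NK list lay higher in regulatory T cells in both libraries. Of all 2395 genes 896 did. The medians of the 3 were 1.40 in aPD1 and 1.24 in Control, and Klra7 was at 0.24 in aPD1. Tyrobp, an NK marker, was found in 24 of 158 aPD1 regulatory T cells against 23 of 104 Cd4-positive ones. In Control it was found in 18 of 78 against 5 of 43. Many of its aPD1 UMIs in regulatory T cells came from 1 cell. Of the 10 lowest genes, Bcl2, Ifng, Klrc1 and Ly6c2 were past 2-fold lower in both libraries against Cd4-positive Foxp3-negative T cells. Another 5 had no value in at least 1 library. Of all genes in that comparison 1.09% were past 2-fold lower, and the 10 were chosen for low values in the same regulatory T cells. Ifng was at a log2 difference of -3.62 in aPD1 and -1.61 in Control, and Bhlhe40, a transcription factor of helper T cells, at -2.66 and -2.11.

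Between the libraries, the identity programme of regulatory T cells stayed close. Of 3609 genes with at least 20 UMIs over both libraries, 181 were at least 2-fold higher in aPD1 (5.02%) and 98 at least 2-fold lower (2.72%). Among the 14 measured identity genes, 1 was past 2-fold higher, Dusp4, and 0 past 2-fold lower, with a median log2 difference of 0.09 beside 0.05 over all genes. Il2ra differed by 0.10 (-0.24 to 0.44), Ikzf2 by 0.07 (-0.10 to 0.25), Izumo1r by 0.22 (-0.04 to 0.48) and Tnfrsf4 by -0.14 (-0.27 to -0.01). Gzmb differed by 0.04 (-0.05 to 0.13). Pdcd1, whose product the antibody binds, gave 35 UMIs in aPD1 and 20 in Control and differed by 0.06 (-0.78 to 0.93), an interval too wide to say that the levels were alike. Over the same list, Foxp3-negative T cells differed by a median of -0.90, with 8 of 17 measured genes past 2-fold lower in aPD1 and 0 past 2-fold higher. Over all 8480 genes measured in those cells 4.04% were past 2-fold lower and 3.56% higher. The makeup of those cells also differed between the libraries. In aPD1 65.3% of them had a Cd8 UMI and 20.2% had 3 or more UMIs of the 5 regulatory T markers, against 24.9% and 43.0% in Control. The part of makeup in the median of -0.90 was not tested. Per cell, the identity genes other than Foxp3 gave 3 to 36 of 1000 drawn UMIs in aPD1 and 2 to 28 in Control, with a median of 13 in both.

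Genes of glycolysis and the hypoxia response lay mostly lower in aPD1. Of 25 measured genes of this list, 22 were lower in aPD1 regulatory T cells, against 45.7% of all measured genes, and 8 were past 2-fold lower with 0 past 2-fold higher. Of all measured genes 2.72% were past 2-fold lower and 5.02% higher. The median log2 difference of the list was -0.75. In Foxp3-negative T cells 28 of 32 were lower, 4 past 2-fold, with a median of -0.28. Of all 8480 genes measured in those cells 4003 were lower, and 4.04% were past 2-fold lower. The hypoxia-inducible factor HIF binds DNA at a short core, ACGTG or GCGTG, and raises the transcription of glycolytic enzymes and of mitophagy genes such as Bnip3.

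Bnip3 had the largest difference. It gave 26 UMIs from 19 aPD1 cells and 56 UMIs from 25 Control cells, that is 64.6 CPM (42.2 to 94.6) in aPD1 and 234 CPM (177 to 304) in Control, a log2 difference of -1.86 (-2.59 to -1.16). Its intervals do not overlap between the libraries. Fam162a, a hypoxia-responsive mitochondrial protein gene, was at 102 CPM in aPD1 and 243 CPM in Control, a difference of -1.25 (-1.87 to -0.65). Aldoa, the aldolase gene and the most abundant of the 8, gave 300 UMIs from 107 aPD1 cells and 376 UMIs from 68 Control cells, or 745 CPM (663 to 834) and 1573 CPM (1418 to 1740). Its difference was -1.08 (-1.30 to -0.86), against -0.20 in Foxp3-negative T cells.

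The 250 bases before the first listed RefSeq start site of these 3 genes (GRCm38.p6, each on the minus strand of its chromosome and written 5′ to 3′ toward the gene) are shown because Bnip3 has the largest difference, Fam162a the most matches to the HIF core, and Aldoa none. Capitals mark ACGTG or GCGTG on either strand, where CACGT and CACGC are their reverse complements.
Bnip3, chr7:138909507-138909756: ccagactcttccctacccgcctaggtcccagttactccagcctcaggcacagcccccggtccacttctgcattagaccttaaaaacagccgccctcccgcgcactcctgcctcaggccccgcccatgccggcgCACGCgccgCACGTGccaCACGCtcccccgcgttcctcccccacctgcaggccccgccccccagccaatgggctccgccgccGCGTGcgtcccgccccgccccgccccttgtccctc
Fam162a, chr16:36071562-36071811: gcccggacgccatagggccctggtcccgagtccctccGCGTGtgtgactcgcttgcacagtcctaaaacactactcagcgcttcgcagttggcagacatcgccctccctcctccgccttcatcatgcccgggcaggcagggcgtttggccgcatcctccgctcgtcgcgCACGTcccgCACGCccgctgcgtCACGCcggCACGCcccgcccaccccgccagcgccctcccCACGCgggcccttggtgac
Aldoa, chr7:126800448-126800697: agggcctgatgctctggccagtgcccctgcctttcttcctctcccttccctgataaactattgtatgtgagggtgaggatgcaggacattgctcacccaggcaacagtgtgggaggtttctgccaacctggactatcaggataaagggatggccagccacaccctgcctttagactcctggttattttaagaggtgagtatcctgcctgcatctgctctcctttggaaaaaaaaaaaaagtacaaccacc
Bnip3 had 5 matches, of which the ACGTG matches at 107 and 108 bases before the start overlap on opposite strands, and Fam162a had 6. Of the 8 genes past 2-fold lower, 6 had a match, Aldoa and Mif being those without. Of the 22 measured list genes with a listed promoter, 15 had a match, and of all 27025 promoters 38.6% did. A match is only a run of letters in this window.

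The glycolytic enzymes named next lay lower in aPD1. Eno1, the enolase gene, was at 117 CPM in aPD1 and 372 CPM in Control, a difference of -1.67 (-2.22 to -1.15). Pfkp, a phosphofructokinase gene, was at 79.5 CPM in aPD1 and 205 CPM in Control, a difference of -1.37 (-2.06 to -0.70). In Foxp3-negative T cells Pfkp differed by 0.12 (-0.21 to 0.46), and the gap between both cell sets was -1.49 (-2.20 to -0.77). Gapdh was at 1396 CPM in aPD1 and 2501 CPM in Control, a difference of -0.84, and the isomerase gene Tpi1 differed by -0.96. Pkm, the pyruvate kinase gene, and Ldha differed by less, by -0.55 and -0.47. Slc2a1, which encodes the glucose transporter GLUT1, gave 10 UMIs in aPD1 and 14 in Control, and its interval of -2.57 to 0.04 included 0.

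Other HIF targets went with them. Ero1l, an oxidoreductase of the endoplasmic reticulum, differed by -1.51 (-2.50 to -0.56), and Mif, a cytokine gene, by -1.03 (-1.36 to -0.70). The 3 exceptions were Hif1a, the gene of the HIF alpha subunit, at 0.26, Hk1, a hexokinase gene, at 0.42, and Slc16a3, the lactate exporter gene, at 0.43, each with an interval that included 0. Against Foxp3-negative T cells of their own library, regulatory T cells had 22 of 29 list genes higher in aPD1, with a median of 0.32, and 26 of 29 higher in Control, with a median of 0.80. Of all genes 2982 of 4845 were higher in aPD1 and 2889 of 4847 in Control. Against Cd4-positive Foxp3-negative T cells the median was -0.35 in aPD1 and 0.35 in Control over 23 genes.

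**Figure D3:**
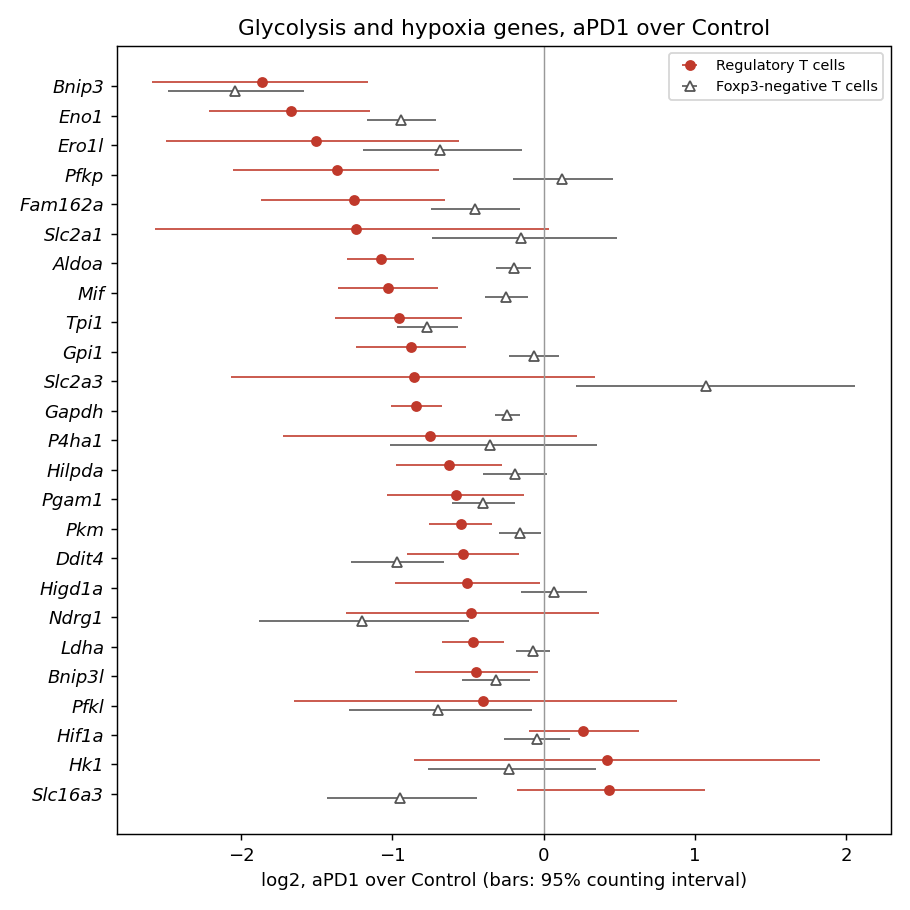
Log2 level in aPD1 over Control for the 25 measured glycolysis and hypoxia genes in regulatory T cells (red circles) and Foxp3-negative T cells (open triangles), with 95% counting intervals. In regulatory T cells 22 lie left of 0, and Hif1a, Hk1 and Slc16a3 lie right of it.

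Counted cell by cell, the list gave 0 to 34 UMIs of 1000 drawn in aPD1, with a median of 7, and 2 to 38 in Control, with a median of 9. The quartiles were 5 and 10 in aPD1 and 6.25 and 16.75 in Control, so the libraries overlapped widely and the upper part of the Control cells lay higher. Control held a larger part of cells with many such transcripts, with means of 8.30 ± 5.22 in aPD1 and 12.1 ± 7.86 in Control (SD over cells, which are not replicates). The medians of Foxp3-negative T cells were 5 in aPD1 and 6 in Control, and those of Cd4-positive Foxp3-negative T cells 7.5 and 9.

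**Figure D4:**
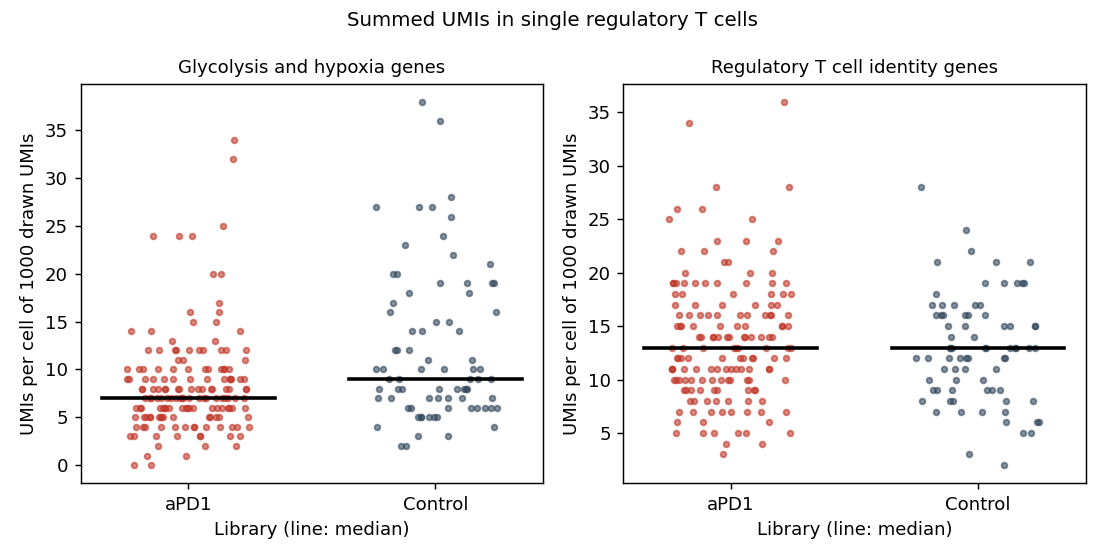
Summed UMIs of the glycolysis and hypoxia list (left) and of the identity list without Foxp3 (right) in each regulatory T cell after drawing 1000 UMIs per cell, for aPD1 and Control. Black lines are medians, 7 and 9 on the left and 13 and 13 on the right.

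The other genes furthest below Control had no common list. Bcl2a1d, a relative of Bcl2 whose near-identical copies can share reads, was at 49.7 CPM in aPD1 and 146 CPM in Control, a difference of -1.56, against 0.10 in Foxp3-negative T cells. Inpp5d, which encodes the lipid phosphatase SHIP1, differed by -1.34, Bnip2 by -1.21, Ehd1, a gene of endosomal recycling, by -1.14, the RNA-binding protein gene Hnrnpa1 by -1.11, and the transcript AY036118 by -1.06. All 6 had intervals below 0. Under the other processing settings Inpp5d ranged from -1.53 to -0.11, the nearest approach to 0 among these 6. Maf differed by -0.65 (-0.94 to -0.37) and Lag3 by -0.50 (-0.84 to -0.17).

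Some interferon-gamma-induced GTPase genes lay higher in aPD1. Iigp1, which attacks vacuoles of intracellular pathogens, gave 123 UMIs from 71 aPD1 cells and 29 UMIs from 18 Control cells, or 305 CPM (254 to 364) in aPD1 and 121 CPM (81.2 to 174) in Control. Its difference was 1.33 (0.74 to 1.97), whereas in Foxp3-negative T cells it was -0.65 (-1.06 to -0.23). Gbp3 differed by 1.23 (0.49 to 2.04), Irgm1 by 0.89 (0.23 to 1.58) and Igtp by 0.87 (0.51 to 1.25), and in Foxp3-negative T cells by 0.76, 0.56 and 1.01. Irgm2, from the same family, was at -1.24 with an interval of -2.57 to 0.04. Over the interferon list 2 of 36 measured genes were past 2-fold higher and 1 past 2-fold lower, near the shares over all genes of 5.02% and 2.72%, with a median of 0.27.

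Single genes of signalling and metabolism also differed. Dusp4, a phosphatase that inactivates MAP kinases, gave 46 UMIs from 36 aPD1 cells and 9 UMIs from 8 Control cells, a difference of 1.60 (0.55 to 2.82). Entpd1 gave 32 UMIs from 27 aPD1 cells and 7 UMIs from 6 Control cells, a difference of 1.44 (0.23 to 2.86). Ago2, the small-RNA-guided nuclease gene, differed by 2.20 (0.70 to 4.17), Gsdmd, the gasdermin D pore protein gene, by 2.15 (0.65 to 4.12) and Glud1, the glutamate dehydrogenase gene, by 2.06 (0.81 to 3.58). These last 3 gave 31, 30 and 42 UMIs from 25, 27 and 29 aPD1 cells, and 4, 4 and 6 UMIs in Control. Of the S-phase genes, 6 of 7 measured were higher in aPD1, 2 past 2-fold, with a median of 0.93, and of the mitosis genes outside the rule 11 of 12 were, 2 past 2-fold, with a median of 0.37. Of all genes 1958 of 3609 were higher in aPD1, 5.02% past 2-fold. In Foxp3-negative T cells 21 of 25 S-phase genes were higher in aPD1, 5 past 2-fold, with a median of 0.48. Of the mitosis genes 12 of 17 were higher there, 1 past 2-fold, with a median of 0.22. Over all genes measured in those cells 4477 of 8480 were higher, 3.56% past 2-fold. The rule removes cells with cell-cycle UMIs, so these lists were read only in the cells left.

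The remaining 9 of the 12 genes furthest above Control are known from cytotoxic lymphocytes, NK cells and myeloid cells, and for most of them a few cells gave a large part of the UMIs. Gzmc gave 347 UMIs in aPD1 and 16 in Control, a difference of 3.69, and 335 of the 347 came from 2 cells. Gzma gave 165 UMIs in aPD1, 147 of them from 1 cell, and 19 in Control. Its difference of 2.37 became 0.25 without the top cell of each library. Among cells with at least 2 Foxp3 UMIs, Gzmc and Gzma lay lower in aPD1, at -2.13 and -2.67. Klrk1 gave 33 UMIs in aPD1 and 0 in Control, at least 2.71 on the log2 scale. Klrd1, Gzmd and Tyrobp gave 52, 55 and 163 UMIs in aPD1 and 4, 2 and 20 in Control. Tyrobp was found in 24 of 158 aPD1 cells and 18 of 78 Control cells, and 63 of its aPD1 UMIs came from 1 cell. S100a8, Wfdc17 and Spp1, genes of neutrophils and macrophages, gave 46, 36 and 42 UMIs in aPD1, with 35, 33 and 20 from 1 cell each, and 1, 2 and 2 in Control.

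Of the regulatory T cells, 7 of 158 in aPD1 and 1 of 78 in Control had 3 or more UMIs of 6 NK markers, and 19 (12.03%) and 11 (14.1%) had 3 or more of NK, macrophage, neutrophil, B, tumour or stroma markers. The summed level of the 6 NK markers was 849 CPM in aPD1, with all 6 detected, and 180 CPM in Control, with 4 detected. The median UMI count of the cells with such markers was 3939 in aPD1 and 3146 in Control, against 2078 and 2895 in the other cells, and no doublet caller was run. The part of these cells in the results was not tested beyond leaving them out, a step chosen after seeing the data. Without those cells Gzmc differed by 0.68, Gzma by 0.05, Klrk1 by 0.35 and Tyrobp by -0.55, while Bnip3 stayed at -1.91, Aldoa at -0.93 and the median of the glycolysis and hypoxia list at -0.58. Ago2, Gsdmd, Glud1 and Dusp4 were then at 2.21, 1.88, 2.40 and 1.43. Tyrobp is 1 of the 6 NK markers that picked the cells left out, so a fall of its UMIs was built into that step.

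**Figure D5:**
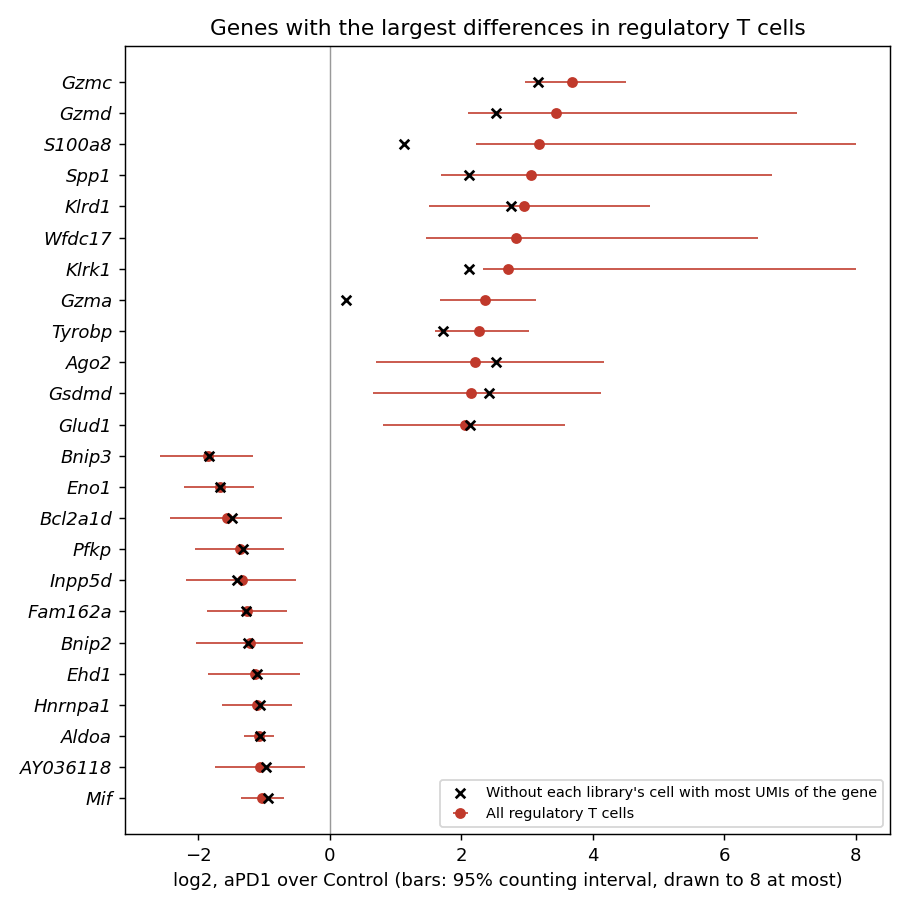
Log2 level in aPD1 over Control in regulatory T cells for the 12 highest and 12 lowest genes, with all cells (circles, 95% counting intervals) and without the cell of each library with most UMIs of the gene (crosses). Gzma and S100a8 shift to 0.25 and 1.12 without 1 cell, while the 12 lowest genes move little; Wfdc17 has no value without it.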

How the data were processed

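Viable CD45+ cells of 2 tumour groups were read as 10x 3' single-cell libraries, 1 per group. The authors deposited raw UMI counts per gene and barcode; the submitters' processing notes name Cell Ranger 2.1 and mm10. Cells were chosen by the rule above, their counts were summed per library and cell set, and levels were expressed as CPM. Exact Poisson and conditional binomial intervals at 95% were computed with Python 3.11.15, numpy 2.4.6, scipy 1.17.1 and pandas 2.3.3, and TMM factors with edgeR 4.0.16 in R 4.3.3. A count under 3 UMIs was set to 3 in a ratio. A gene needed 20 UMIs and was called past 2-fold. The calculation was tested on simulated data.

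The members and gene lists were chosen with earlier results of these data known. Named were the 15 highest and 10 lowest genes against Foxp3-negative T cells, by the smaller of both libraries' ratios, and the 12 highest and 12 lowest in aPD1 over Control, with at least 30 UMIs where higher and without mitochondrial, ribosomal protein, receptor segment, unnamed and rule genes. Markers and up to 5 genes of each list were added, and Slc2a1, Tpi1, Gapdh, Pkm, Ldha, Hif1a, Hk1, Slc16a3 and other further list members were chosen after their values were seen. Gene coordinates are from GENCODE and promoters from RefSeq GRCm38.p6.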

Additional observations from a re-analysis of the deposited data

Results flagged for a closer look

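For 5 genes the log2 level in aPD1 over Control lay above 0 in regulatory T cells and below 0 in Foxp3-negative T cells, with counting intervals on opposite sides of 0. The difference between both cell sets was not tested over replicates. Dusp4 was at 1.60 in regulatory and -0.82 in Foxp3-negative T cells, and Iigp1 at 1.33 and -0.65. Tyrobp was at 2.27 in regulatory and -0.51 in Foxp3-negative T cells, Fcer1g at 1.96 and -0.67, and Spp1 at 3.06 and -1.58. Of the 163 Tyrobp UMIs in aPD1 regulatory T cells 63 came from 1 cell, and of the 42 Spp1 UMIs 20 did, while Dusp4 had at most 3 and Iigp1 at most 11 UMIs in a cell. Tyrobp turned to -0.55 without cells holding other types' markers and to -0.85 with the rule applied after thinning. Tyrobp and Fcer1g are both among the NK markers that picked those cells. The Foxp3-negative T cells also differed in makeup between the libraries.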

How the results depend on the processing

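Of 1697 recomputed values, 192 of the main kind and 1286 of single genes were counted as unchanged, and 37 and 173 as moved. For single genes, unchanged meant inside the gene's own counting interval, which is wide where UMIs are few. It does not mean a close value. Over the settings, Ccr8 in aPD1 over Control ranged from -4.15 to -0.06. Another 9 values past 2-fold changed sign. A further 17 log2 values short of the threshold changed sign, all for aPD1 over Control, such as Il2ra at -0.15 and the identity median at -0.05 with a minimum of 2000 UMIs, Izumo1r at -0.30 with a Cd4 UMI required, Tnfrsf4 at 0.26 after thinning and Areg at -0.51 with 2 Foxp3 UMIs. The cause of these changes was not tested. Some alternatives keep fewer cells or genes. A minimum of 2000 UMIs left 92 aPD1 cells. Requiring 2 Foxp3 UMIs left 51 aPD1 and 33 Control cells, 7.43% and 11.5% of CD8-negative T cells, with 78 genes lower in regulatory T cells and 78 higher and 55 lower in aPD1. Requiring a Cd4 UMI left 47 and 40 cells, 6.85% and 14.0%, with 66 lower, and 79 higher and 56 lower in aPD1. The rule after thinning left 99 and 42 cells, 13.1% and 14.7%, with 77 lower, and 60 lower in aPD1.

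Against Foxp3-negative T cells, TMM scaling gave 117 higher and 212 lower genes, and scaling without mitochondrial and ribosomal genes 128 and 179. A minimum of 50 UMIs gave 111 and 66, and 27 higher and 19 lower in aPD1. A minimum of 3 UMIs gave 386 higher, and 369 higher and 527 lower in aPD1. The Cd4-positive comparator gave 37 higher and 26 lower, medians of 1.36 in aPD1 and 0.80 in Control for the identity list and 0.63 in aPD1 for the effector list, and turned Klra7 to 0.24 in aPD1 and Ccr8 to -0.34 in Control. Among aPD1 over Control values, Gzmc was -2.13 and Gzma -2.67 with 2 Foxp3 UMIs, and Gzmc -2.07, Klrd1 -0.17, Gzma -2.03 and Tyrobp -0.85 after thinning. Tyrobp was -0.55 without cells holding other types' markers, chosen after seeing the data. No paired analysis was possible because the groups share fewer than 2 replicate numbers, and with 1 library per group no replicate could be left out.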
